A study of Drosophila melanogaster with 4 samples.

Results

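Lipid travels between insect tissues in lipoprotein particles, and this account follows 8 genes of that system in the muscle precursor cells of the Drosophila melanogaster wing disc after knockdown of the Hox gene Antp. The 8 genes are apolpp, Apoltp and Mtp, which encode the particle proteins and the proteins that load them, LpR1, LpR2, mgl and LRP1, which encode receptors of the LDL receptor family, and Culd, which encodes a membrane protein with CUB and LDL receptor class A domains. They were chosen by gene symbol out of 17494 genes in the count table. The choice was made with the difference between these same groups already known, so every difference between groups given for these 8 genes is a description and not a test.

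Adult flight muscle precursors (myoblasts) were compared at 0 hours after puparium formation (APF), from animals kept at 29°C. The 2 Antp RNAi libraries (replicates 1 and 2) came from Mef2-Gal4;UAS-GFPnls;UAS-Antp RNAi animals, and the 2 control libraries (replicates 2 and 3, labelled WT) from Mef2-Gal4;UAS-GFPnls;UAS-Y RNAi animals, in which the hairpin is directed against the pigment gene yellow (y). The extraction protocol in the labels instead names the reporter UAS-GFP::Gma and a WT control, and the genotype field is followed here. Mef2-Gal4 is a muscle driver that, per the study, becomes active in disc myoblasts only in the third larval instar, and a single Antp hairpin line was sequenced. For each library 30 to 35 discs were dissociated, and roughly 50000 GFP-positive cells were sorted. Any difference in strain background between the hairpin lines would go with the hairpin and could not be told apart from it. The labels call the replicates independent, whereas the methods of the study describe technical replicates of a single biological sample, so the spread given here may be technical.

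The libraries held 42110502 to 53957914 counts, and 12537 to 12800 genes were detected with 1 count or more. Antp itself had 135 and 144 CPM (counts scaled to library sizes that were themselves adjusted by the TMM method) in Antp RNAi, against 192 and 172 CPM in the control. Both Antp RNAi libraries were lower, by a log2 fold change of -0.38 ± 0.11 (SE) that did not pass the test over all genes (edgeR adjusted p = 0.145). The mesodermal regulator twi, which marks these cells, was abundant in both groups. It had 2762 and 2448 CPM in Antp RNAi and 2545 and 2191 CPM in the control. Other myoblast markers, which moved in both directions, are counted and summed further on. Over all genes, 48 of 10360 genes that passed the filter on low counts were called by edgeR's quasi-likelihood test at an adjusted p under 0.001, and leaving out any of the 4 libraries gave 153 to 228.

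In insects, the lipoprotein lipophorin shuttles lipid through the hemolymph. Its scaffold is made by the fat body, where the microsomal triglyceride transfer protein adds the first lipid, and a second particle, the lipid transfer particle, helps to load lipophorin at the gut and to unload it at target tissues. Receptors of the LDL receptor family take part in this unloading in imaginal discs and oocytes, and lipophorin also carries lipid-linked morphogens such as Wingless and Hedgehog in the disc.

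All 8 genes passed the filter on low counts, and their levels spanned a wide range. Levels are compared between genes as RPKM, which divides CPM by the exon length in kilobases. In Antp RNAi the order by mean RPKM was Mtp (27.1 ± 1.04), LpR2 (24.5 ± 1.09), Culd (11.9 ± 0.725), LRP1 (5.24 ± 1.18), mgl (2.21 ± 0.155), apolpp (1.64 ± 0.852), LpR1 (0.121 ± 0.0461) and Apoltp (0.0263 ± 0.0279) (SD, n = 2). In the control the order was Culd (50.4 ± 0.231), Mtp (23.8 ± 0.270), LpR2 (21.8 ± 0.302), LRP1 (4.69 ± 0.0858), mgl (2.79 ± 0.159), LpR1 (0.118 ± 0.00999), Apoltp (0.0531 ± 0.00882) and apolpp (0.0504 ± 0.0215) (SD, n = 2). Neighbours in this order overlapped in their libraries for mgl and apolpp in Antp RNAi and for Apoltp and apolpp in the control. Culd stood at the head of the control order and behind Mtp and LpR2 in Antp RNAi. It made up 15.5% and 17.3% of the summed RPKM of the 8 genes in the Antp RNAi libraries, against 48.4% and 48.8% in the control libraries.

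**Figure D1:**
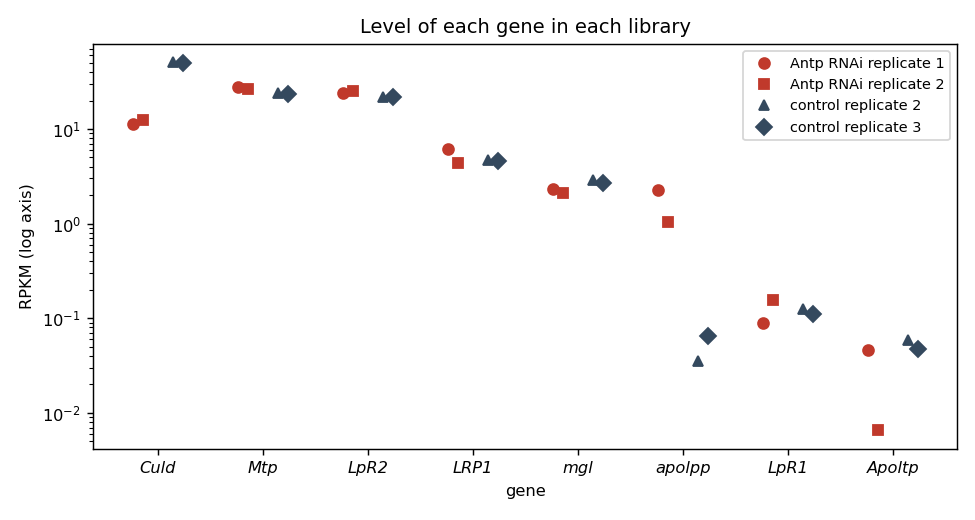
Level of each of the 8 genes in each library, as RPKM on a log axis, with Antp RNAi libraries in red and control libraries in blue. Culd lies lower and apolpp higher in both Antp RNAi libraries, while Mtp, LpR2, LRP1 and mgl keep within a narrow range and LpR1 and Apoltp lie near the bottom of the scale.

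Between the groups, apolpp and Culd had by far the largest differences among the 8 genes. They were also the 2 of 8 that the fit over all genes called at an adjusted p under 0.001, where 0.463% of genes tested were called, and no further gene of the 8 joined them at 0.05, where 2.58% were called. With 4 of the alternative settings Culd alone was left at 0.001. Since this contrast was used to choose the genes, nothing is read from that count. In CPM, both Antp RNAi libraries lay on the same side of both controls for 6 of the 8, the exceptions being LpR1 and LRP1, against 40.6% of all genes tested. The median log2 ratio of Antp RNAi to control was 0.10 for the 8 genes and -0.012 for all 10360.

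**Figure D2:**
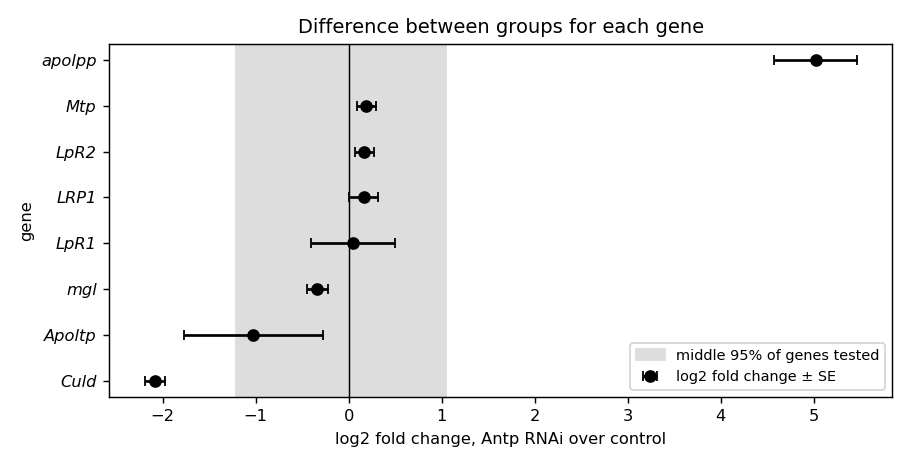
Fitted log2 ratio of Antp RNAi to control for each of the 8 genes with its standard error, over a grey band that holds the middle 95% of the genes tested (-1.21 to 1.05). Only apolpp (5.02) and Culd (-2.08) lie outside the band, and the standard error of Apoltp reaches past its edge.

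The gene apolpp encodes the precursor of apolipophorins I and II, the scaffold of lipophorin (FBgn0087002, dm6 chromosome 4, 1060969 to 1077273, plus strand, protein-coding, with 4 annotated transcripts). It had 1121 and 564 counts in Antp RNAi, against 22 and 42 counts in the control. In CPM these were 26.4 and 12.3 in Antp RNAi and 0.414 and 0.771 in the control. Both Antp RNAi libraries were far above both control libraries, and the libraries within each group differed by about the same factor, 2.16 between the Antp RNAi libraries and 1.86 between the control libraries. The fitted log2 fold change was 5.02 ± 0.44 (SE), a 32.4-fold higher level in Antp RNAi, and the ratio of single libraries ran between 15.9 and 63.9. Leaving out Antp RNAi replicate 1 gave 4.37, the furthest below the fit of all 4 libraries. Even in Antp RNAi, apolpp remained a low-level transcript per length, below Mtp and LpR2 in every library.

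By size of log2 fold change apolpp ranked 10th among higher genes of all those tested. Its spread within the Antp RNAi group was wide as well, with a log2 difference of 1.11 between the libraries (log2 CPM, prior count 2), beside a median size of 0.232 and a 95th percentile of 1.05 over all genes tested. A bulk library cannot tell a few cells with much apolpp RNA from many cells with little.

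Since apolpp is known as a fat body gene, markers of that tissue were set beside it. Of 10 fat body markers, Lsp2, a larval serum protein, Fbp1, the fat body receptor for larval serum protein 1, and AkhR, the receptor for adipokinetic hormone, had 0 counts in all 4 libraries, which allows at most 0.0708 CPM in any library from a floor of 3 counts. The other larval serum protein genes and Fbp2, fon and Gnmt reached at most 9 counts in an Antp RNAi library and 16 in a control library. Ilp6, an insulin-like peptide gene, was the only marker that passed the filter, at 8.0 and 7.13 CPM in Antp RNAi and 8.30 and 8.85 CPM in the control. The summed level of the 10 markers was 7.72 to 8.56 CPM in Antp RNAi and 8.98 to 9.14 CPM in the control, nearly all of it from Ilp6. The other 9 markers summed to 0.566 and 0.587 CPM in Antp RNAi and to 0.677 and 0.294 CPM in the control, so that those groups overlapped. The part of fat body in the level of apolpp was not tested.

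Culd is known in the fly eye for the endocytic traffic of rhodopsin and TRPL channels, and its LDL receptor class A domains give it its place among these genes (FBgn0035880, dm6 chromosome 3L, 8352355 to 8356296, minus strand, protein-coding). Its counts were 1590 and 1879 in Antp RNAi and 8841 and 9005 in the control. These correspond to 37.5 and 40.9 CPM in Antp RNAi, against 166 and 165 CPM in the control. The libraries of each group lay close together, and the groups were well apart. The log2 fold change was -2.08 ± 0.11 (SE), which puts Antp RNAi at 23.6% of the control. The 4 fits that each left out a library gave -2.13 to -2.02, and the ratio of single libraries ran between 0.225 and 0.247. Culd ranked 106th among lower genes of all those tested, and its libraries within the Antp RNAi group differed by -0.12 on the log2 scale, less than the median gene.

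Hemocyte markers were set beside Culd in the same way. Of 10 such markers, 5 were tested, and 2 were lower in Antp RNAi by edgeR at an adjusted p under 0.05, which 2.58% of all genes tested passed. Groups did not overlap in CPM for 3 of the 5, all lower in Antp RNAi, where 40.6% of all genes tested had such groups. The 2 that passed were Pxn and NimC1. Pxn, a peroxidase of the extracellular matrix, had 6.98 and 5.70 CPM in Antp RNAi and 170 and 151 CPM in the control (edgeR adjusted p = 7.59e-06). NimC1, a phagocytosis receptor, had 1 count in each Antp RNAi library and 44 and 45 counts in the control libraries (edgeR adjusted p = 0.00799). The summed level of all 10 was 48.9 to 51.0 CPM in Antp RNAi and 197 to 211 CPM in the control, with Pxn the largest share of the control sum. The scavenger receptor gene crq was at about the same level in all libraries, 43.0 and 42.5 CPM in Antp RNAi and 39.4 and 44.0 CPM in the control. The markers other than Pxn summed to 44.0 and 43.2 CPM in Antp RNAi and 41.8 and 46.3 CPM in the control, so those groups overlapped. Without Pxn and crq, the 8 markers left, NimC1 among them, summed to 0.967 and 0.783 CPM in Antp RNAi against 2.35 and 2.31 CPM in the control. Of this, NimC1 gave 0.0236 and 0.0218 CPM in Antp RNAi and 0.828 and 0.826 CPM in the control. Of the defining hemocyte genes Hml and eater, Hml had 0 counts in both Antp RNAi libraries and 10 and 0 counts in control replicates 2 and 3. For eater, counts were 0 and 1 in Antp RNAi and 0 and 2 in the control. The part of hemocytes in the level of Culd was not tested.

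**Figure D3:**
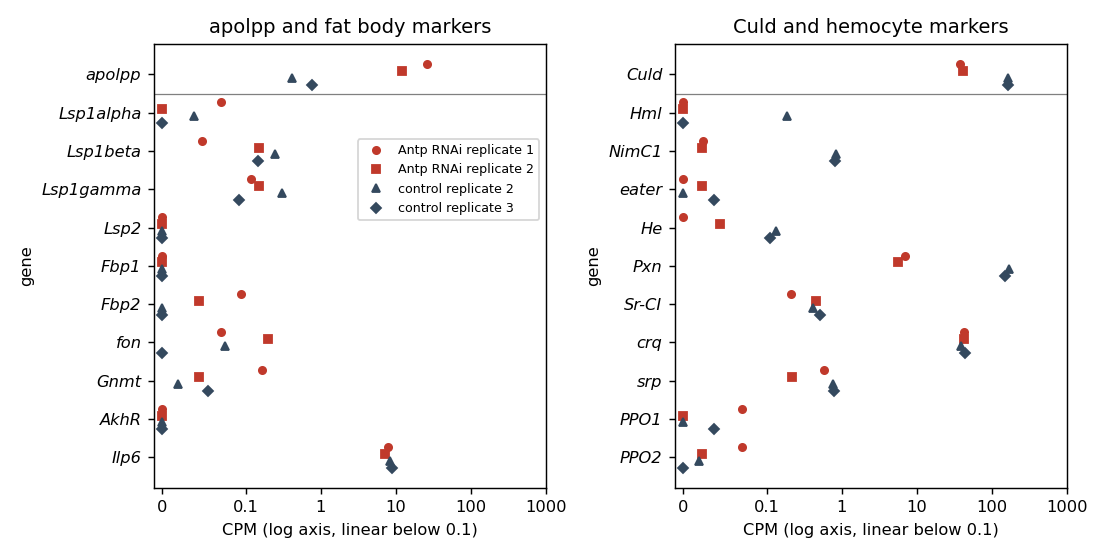
CPM of apolpp above 10 fat body markers (left) and of Culd above 10 hemocyte markers (right) in each library, on an axis that is logarithmic above 0.1 CPM and linear below it. Fat body markers other than Ilp6 sit below 1 CPM in every library, while on the right Pxn and NimC1 are lower in both Antp RNAi libraries and crq is at about the same level in all 4.

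Among markers of other cells, 1 of 10 myoblast genes passed the edgeR test at an adjusted p under 0.05 (ct, log2 fold change -0.86). So did 1 of 10 disc epithelium genes (Fas3, 1.23), 1 of 6 tracheal genes (Gasp, -2.51) and 1 of 6 neuronal and glial genes (Gli, 0.87). Over all genes tested, 2.58% passed at 0.05. Of the 10 myoblast markers, 7 had groups that did not overlap in CPM, 3 of them higher in Antp RNAi and 4 lower. Their summed level was 10658 to 11992 CPM in Antp RNAi and 10102 to 11446 CPM in the control. Of the 10 disc epithelium markers, 6 had groups that did not overlap in CPM, where 40.6% of all genes tested had such groups. Higher in Antp RNAi were 5 of them (nub, rn, crb, Fas3 and pdm2) and lower was 1 (shg). The summed level of the disc epithelium markers was 2052 to 2247 CPM in Antp RNAi and 2192 to 2311 CPM in the control. Most of it came from rn, ap, shg and sd. The study names sd as a cofactor of vg, a gene of the myoblast list, so this sum does not measure disc epithelium alone. Without these 4 abundant genes the sum was higher in Antp RNAi, at 38.6 and 36.7 CPM, against 17.9 and 26.3 CPM in the control. The 4 were left out for levels seen in these same libraries, and they include shg, which was lower in Antp RNAi. With all 10 markers the groups overlapped, so the higher sum depends on this choice. Sums of tracheal markers were 31.6 to 36.5 CPM in Antp RNAi and 37.3 to 41.1 CPM in the control. Of the 6 tracheal markers, 4 had groups that did not overlap in CPM. Higher in Antp RNAi were trh (log2 fold change 0.53) and btl (0.27), and lower were verm (-0.41) and Gasp. Gasp had a mean of 1.13 CPM in Antp RNAi and 6.48 CPM in the control. The lower sum was thus not shared by all tracheal markers and depends in part on Gasp. Sums of neuronal and glial markers were 38.2 to 43.6 CPM in Antp RNAi and 32.0 to 35.9 CPM in the control. Of this, Gli gave 10.6 and 10.4 CPM in Antp RNAi and 6.21 and 5.23 CPM in the control. Among the 6 tested markers of this list, 2 had groups that did not overlap, 1 higher in Antp RNAi and 1 lower. The part of these other cells in the levels of the 8 genes was not tested.

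The genes on either side of apolpp and Culd showed no difference of like size. Exons of Zyx, an adaptor protein of focal adhesions, share 96 bases with apolpp, 0.816% of its exon length, and Zyx had 76.5 and 85.8 CPM in Antp RNAi against 73.6 and 87.2 CPM in the control. Actbeta, which encodes an activin ligand and whose 3′ end lies 58 bases beyond apolpp, had 23 and 0 counts in Antp RNAi and 20 and 13 in the control. On the other side CaMKII, a calcium-dependent kinase gene, had a log2 fold change of 0.11 ± 0.12 (SE). All 4 genes within 20 kb of apolpp were tested, edgeR called none at an adjusted p under 0.05, and their log2 fold changes ran from -0.20 to 0.15. On chromosome 4 as a whole, 2 of 90 genes tested were called at 0.05, apolpp among them, and the median log2 fold change was 0.025.

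Culd lies between GAPcenA and Idh, 76 and 108 bases away, and shares no exon bases with either. GAPcenA, a gene for a Rab GTPase activator, had a log2 fold change of 0.22 ± 0.12 (SE). Idh, which encodes NADP-dependent isocitrate dehydrogenase, was 416 and 469 CPM in Antp RNAi and 296 and 296 CPM in the control, the opposite direction to Culd. It was the 1 of 7 tested neighbours within 20 kb called at 0.05 (log2 fold change 0.58, edgeR adjusted p = 0.0273). Around all 8 genes, no neighbour within 20 kb was called at 0.001.

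**Figure D4:**
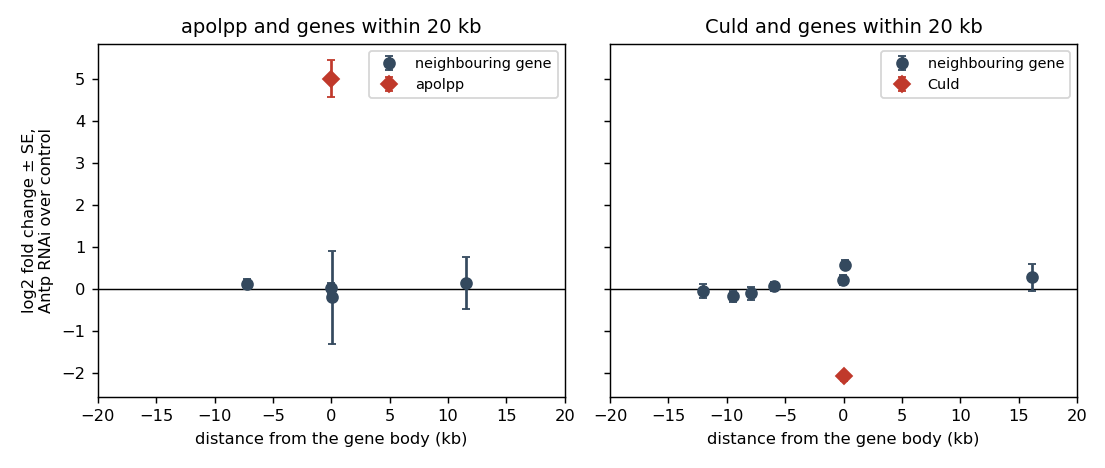
Fitted log2 ratio of Antp RNAi to control and its standard error for apolpp (left) and Culd (right), as red diamonds, and for the tested genes within 20 kb, as blue circles, against distance from the gene body in kb. The neighbours of apolpp run from -0.20 to 0.15 and those of Culd from -0.18 to 0.58.

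The remaining particle genes did not follow apolpp. Mtp, the microsomal triglyceride transfer protein gene (FBgn0266369, dm6 chromosome 2L, 20919094 to 20922876, minus strand), had 81.7 and 77.4 CPM in Antp RNAi and 70.3 and 69.1 CPM in the control. Both Antp RNAi libraries were slightly above both controls, with a log2 fold change of 0.19 ± 0.10 (SE). Apoltp, the apolipoprotein of the lipid transfer particle (FBgn0032136, dm6 chromosome 2L, 9634179 to 9656026, plus strand), had 26 and 4 counts in Antp RNAi and 42 and 34 counts in the control. It was thus near the limit of what these libraries measure, and its libraries differed more within Antp RNAi than between the groups. As CPM, Antp RNAi replicate 1 (0.613) was barely below control replicate 3 (0.624). The log2 fold change of -1.02 ± 0.75 (SE) rested on Antp RNAi replicate 2, as it was -0.19 without that library and -2.98 without Antp RNAi replicate 1. Per length, Mtp was 606-fold and 4044-fold above Apoltp in Antp RNAi replicates 1 and 2, where replicate 2 held only 4 Apoltp counts, and 404-fold and 504-fold above it in the control libraries.

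Of the lipophorin receptors, the myoblasts carried LpR2 and hardly any LpR1. These neighbouring genes on chromosome 3R lie 883 bases apart on the minus strand (LpR2, FBgn0051092, 25698727 to 25740465, and LpR1, FBgn0066101, 25741348 to 25763105, dm6) and encode related receptors for the uptake of neutral lipid. LpR2 had 131 and 139 CPM in Antp RNAi and 121 and 119 CPM in the control, a log2 fold change of 0.17 ± 0.10 (SE). LpR1 had 25 and 47 counts in Antp RNAi and 44 and 40 in the control, a log2 fold change of 0.049 ± 0.45 (SE). The control libraries of LpR1 lay between its Antp RNAi libraries, and the sign of its fold change turned when Antp RNAi replicate 2 (-0.39) or control replicate 3 (-0.028) was left out. Per length, LpR2 was 202-fold above LpR1 in Antp RNAi and 185-fold above it in the control. How reads shared by the paralogs were assigned is not given in the sources used here, so these ratios carry that uncertainty.

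The large endocytic receptors had small differences between the groups that shifted with the libraries used. The gene mgl encodes the fly megalin, which in the epidermis clears the Yellow protein from the cuticle (FBgn0261260, dm6 chromosome X, 9358496 to 9500129, minus strand). It had 41.0 and 37.2 CPM in Antp RNAi and 51.3 and 47.3 CPM in the control, so both Antp RNAi libraries were lower. Its log2 fold change was -0.34 ± 0.12 (SE), and the fits that left out a library gave -0.40 to -0.25. Exons of BCL7-like share 99 bases with mgl, 0.560% of its exon length. LRP1 is the ortholog of the vertebrate receptor of that name (FBgn0053087, dm6 chromosome 2R, 8174165 to 8226438, plus strand). It had 95.9 and 69.6 CPM in Antp RNAi, which lay on either side of the 75 and 73.1 CPM of the control. Its log2 fold change of 0.16 ± 0.15 (SE) became -0.083 when Antp RNAi replicate 1 was left out and 0.39 when Antp RNAi replicate 2 was. Neither receptor was called at 0.05 with all 4 libraries, but LRP1 was without Antp RNAi replicate 2, and mgl was without Antp RNAi replicate 1. LRP1 exceeded mgl per length in both groups, 2.37-fold in Antp RNAi and 1.68-fold in the control.

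The wider machinery of lipid transport was examined with 3 lists. In the list of other LDL receptor or CUB domain proteins and their partners, 14 of 15 genes were tested, none was higher and 2 were lower by edgeR at an adjusted p under 0.05, which 2.58% of all genes tested passed. These were tok and tld, neighbouring genes for tolloid-type metalloproteases with CUB domains. The gene tok had 255 and 254 CPM in Antp RNAi and 585 and 604 CPM in the control (log2 fold change -1.22 ± 0.097 (SE), edgeR adjusted p = 4.75e-04). The gene tld had 19.8 and 12.9 CPM in Antp RNAi and 53.2 and 39.4 CPM in the control (log2 fold change -1.50 ± 0.22 (SE), edgeR adjusted p = 0.0112). Tolloid is known for cleaving an inhibitor of BMP ligands, and neither gene encodes a lipoprotein receptor. The count was 5 without Antp RNAi replicate 2 and 3 without any other library. The list as a whole had a median log2 fold change of 0.071, against -0.012 for all genes tested.

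In that list, the receptor chaperone boca had 1672 and 2137 counts in Antp RNAi and 2713 and 2876 in the control, with a log2 fold change of -0.27. The Wnt co-receptor arr had a log2 fold change of 0.26. Neto, which like Culd joins CUB and LDL receptor class A domains, had 8 and 10 counts in Antp RNAi and 100 and 33 in the control. Its groups did not overlap, but its control libraries differed widely and its log2 fold change of -2.60 ± 0.65 (SE) did not pass (edgeR adjusted p = 0.0973). The chaperone, arr and Neto were picked after their values were seen.

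By edgeR at an adjusted p under 0.05, no gene was called in the lists of lipoprotein assembly, yolk and lipid carriers (13 of 22 tested) or of lipid uptake, storage and synthesis (22 of 26 tested). An unadjusted p under 0.05 was reached by 3 genes in each list, against 11.5% of all genes tested, and DESeq2 called 2 and 1 genes at an adjusted p under 0.05. These counts were not stable, as leaving out Antp RNAi replicate 2 gave 4 and 5 in edgeR, and leaving out Antp RNAi replicate 1 gave 3 and 2. Leaving out control replicate 3 gave 1 and 0, and leaving out control replicate 2 gave 0 in both. Median log2 fold changes were 0.16 and 0.14, against -0.012 for all genes tested. Npc2a, which encodes a sterol-binding protein and was picked after its values were seen, had 4.53 and 4.39 CPM in Antp RNAi and 1.67 and 2.31 CPM in the control. Its groups did not overlap, and its log2 fold change of 1.16 ± 0.27 (SE) did not pass (edgeR adjusted p = 0.0752).

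**Figure D5:**
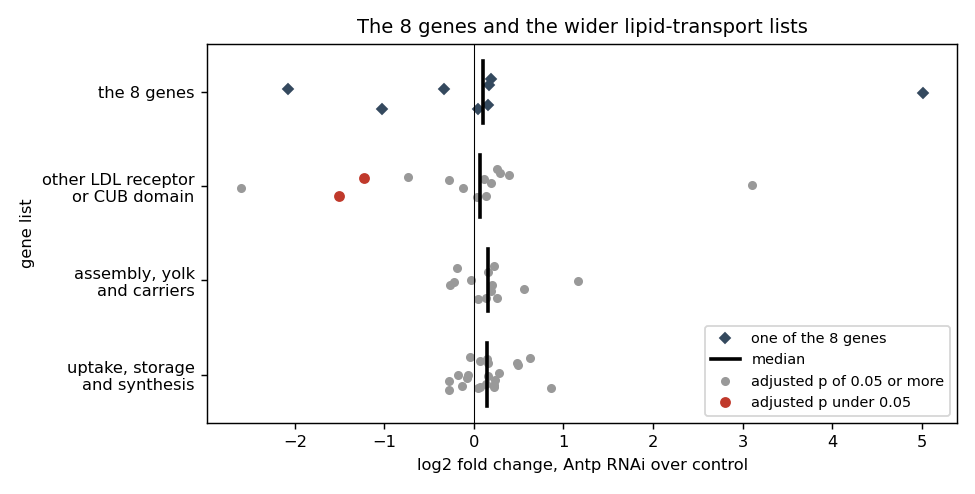
Fitted log2 ratio of Antp RNAi to control for the 8 genes (blue diamonds, not marked by a test) and for tested genes of the 3 wider lists (circles), with a black bar at each median. Red circles passed edgeR at an adjusted p under 0.05, which were only tok and tld in the first list.

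Genes whose profile over the 4 libraries was most like that of apolpp or Culd were ranked by Euclidean distance between log2 CPM values centred on each gene's mean. Nearest to apolpp was wun2, a lipid phosphate phosphatase gene, at a distance of 0.705, with 52.1 and 41.4 CPM in Antp RNAi and 1.66 and 2.17 CPM in the control. It was followed by l(1)sc, a proneural gene, at 0.937, and CG4927 at 1.0, both of which stayed under 2 CPM in every library. Nearest to Culd were out, CG8785 and CG33993 at distances of 0.122, 0.128 and 0.132. Of these, CG33993 was the most abundant, with 4.32 and 4.13 CPM in Antp RNAi and 18.3 and 18.1 CPM in the control. With 4 libraries in 2 groups, such a distance mostly reflects the difference between the groups.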

How the data were processed

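Per the file headers and the submitters' processing notes, the deposited counts are whole numbers of reads assigned to exons per FlyBase gene on dm6 (Subread, featureCounts), without normalization, for 4 libraries. The notes also list bcl2fastq 2.17.1.14 and DESeq2 1.34. Use of strand and treatment of multiply mapped reads are not given in the sources used here. A deposited comparison (fold changes and p-values) was not used, apart from its gene symbols. Coordinates are those of the count table and matched Ensembl annotation 115 for all 8 genes. No molecular identifiers are described, so floors cover counting error only.

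Counts were tested with edgeR 4.0.16 (filterByExpr, minimum count 10, TMM, quasi-likelihood test, two-sided, Benjamini-Hochberg over 10360 genes). A gene was called at an adjusted p under 0.001, or 0.05 where stated. The study used the threshold of 0.001 with DESeq2, a different test, so the counts of genes called by edgeR are not those of the study. The standard error is the log2 fold change divided by the square root of F. RPKM used the table's exon lengths. The test was checked on simulated counts. Alternatives were other scalings, filters, DESeq2 1.42.0, limma-voom 3.58.1 and leaving out each library. The 8 genes and the lists were chosen with earlier results of these data known. By rule, the text names list genes past 0.05 (at most 6 a list), and for apolpp and for Culd the 3 nearest profiles and the nearest neighbour on each side. Markers were also named to show which genes carry a sum, and boca, arr, Neto and Npc2a were added after their values were seen. Of the listed symbols, Cubn2 was matched by gene identifier (CG42255 in the table), and Pdi and dys were not matched and were not used here. Protein and promoter sequences were not analysed here.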

Additional observations from a re-analysis of the deposited data

How the results depend on the processing

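The direction of apolpp, Culd, Mtp, LpR2, mgl and Apoltp was kept in every setting that gave a value, and Culd was called in each. A mean of at least 100 counts left out Apoltp and LpR1. In the main edgeR fit, the call of apolpp sat close to the threshold. It was kept with DESeq2, with library totals and with every gene of at least 1 count. It was lost with median-of-ratios size factors (log2 fold change 5.04), upper-quartile scaling (5.01), a mean of at least 100 counts (5.03) and limma-voom (4.95), each of which left 1 of the 8 genes called. Without each library in turn it ran from 4.37 to 5.55. The sign of LpR1 (-0.39 to 0.39) and LRP1 (-0.083 to 0.39) turned in some of those fits, LRP1 passed 0.05 without Antp RNAi replicate 2 (0.39), and mgl did without Antp RNAi replicate 1 (-0.40). They leave a group with a single library, which is then assumed to vary like the other group. The count of 48 genes over all genes was 236 with DESeq2, 120 with every gene of at least 1 count, 267 at an adjusted p under 0.05 and 153 to 228 without each library. It was 32 with median-of-ratios size factors, with upper-quartile scaling and with a mean of at least 100 counts, 33 with limma-voom and 63 with library totals. The cause of these shifts was not tested. The wider lists gave 2 to 5 calls for other LDL receptor or CUB domain proteins (3 to 5 without each library, 3 with DESeq2), 0 to 4 for assembly, yolk and carriers (2 with DESeq2) and 0 to 5 for uptake, storage and synthesis (1 with DESeq2). Scaling by library totals moved 1 of 16 mean levels by more than 1 SD. With every scaling tried, the median over all genes lay between -0.029 and 0.0016. No paired analysis was possible because replicate number 2 is the only one that both groups have. Apoltp and LpR1 had under 50 counts in each library, and their standard errors of 0.75 and 0.45 (log2) leave small differences out of reach at this depth.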
